A study of Homo sapiens with 2 samples.

Results

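The genes FOS, FOSB, FOSL1, FOSL2, JUN, JUNB and JUND encode the FOS and JUN subunits of the transcription factor AP-1. All isoforms carrying one of these 7 gene symbols were taken from the deposited table, which gave 13 of its 63236 isoforms and 7 of its 26257 gene symbols. RNA came from HCT-116, an established human colorectal carcinoma cell line, and poly-A RNA was sequenced in 1 library per group. The LPA group consisted of serum-starved cells exposed for 24 h to 10 µM lysophosphatidic acid (LPA), a lipid mediator recognised by G protein-coupled receptors. The control group was untreated, and the labels do not say whether its cells were also starved. With 1 library per group no difference described here has a replicate check or a p-value. The titles of both libraries carry the replicate number 3, and no other replicates were available here. The labels do not say how many cultures each library came from.

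AP-1 is a dimer of basic leucine zipper proteins that binds short palindromic DNA elements. FOS proteins cannot pair with themselves and bind DNA as partners of JUN proteins, whereas JUN proteins can also pair with each other. FOS, FOSB, JUN and JUNB are classical immediate early genes, with transcripts that appear within minutes of a growth stimulus and decay quickly. FOSL1, which encodes FRA-1, follows later and is sustained by ERK signalling in carcinoma cells, and JUND is expressed in many resting cells.

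Cyclic AMP response elements and their variants are known entry points for signals at the promoters of several of these genes. They are shown here because 5 of the 6 members with a RefSeq promoter sequence (GRCh38.p14) hold such letters in the 250 bases before the gene's start. The motifs searched, on both strands, were TGACGT, its palindromic extension TGACGTCA, the AP-1 element TGANTCA, the JUN-type variant TGACATCA, CCAAT and the CArG box. TGACGT was present in 4 of the 6 promoters and in 7.1% of all 35116 promoters of this length. The 5 of 6 counts TGACGT or TGACATCA, for which no joint share over all promoters was taken. These motifs were chosen with the promoter sequences in view, so that count is a description only. FOSL1 has no entry in that promoter table. The letters of TGACGT, TGACGTCA and TGACATCA are in capitals in the lines that follow, and CCAAT is left in lower case, each line running 5′ to 3′ on the gene's own strand.
FOS, chr14:75278752-75278781, plus strand: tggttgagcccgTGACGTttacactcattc
FOSB, chr19:45467924-45467953, plus strand: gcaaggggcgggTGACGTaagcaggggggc
FOSL2, chr2:28392780-28392809, plus strand: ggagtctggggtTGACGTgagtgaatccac
JUN, chr1:58784096-58784125, minus strand: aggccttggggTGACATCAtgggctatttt
JUND, proximal, chr19:18281692-18281721, minus strand: tgcaaatgagcgACGTCAcccgcacccaat
JUND, distal, chr19:18281803-18281832, minus strand: gccgcccccaTGACGTCAacccacaaggca

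In FOS, FOSB and FOSL2 the TGACGT letters began 64, 60 and 66 bases before the start, and in JUN the TGACATCA letters began at 67 bases. The proximal JUND match is TGACGT on the opposite strand, and the distal one is the full palindrome TGACGTCA, which 1.65% of all promoters hold and which contains TGACGT on both strands. TGACATCA was found in 2.37% of all promoters. CCAAT was present in the JUN, JUNB and JUND promoters and in 32% of all promoters. TGANTCA (6.57% of all promoters) and the CArG box (1.16%) matched none of the 6 windows. Letters further than 250 bases before the start were not searched, so a site there would be missed. Starts are those of the RefSeq table. The deposited loci of FOS, JUN and JUND begin further upstream, and nearly all of the TGACATCA letters lie within the deposited JUN transcript. The deposited FOSL2 locus also begins further upstream, but its span is the same as that of FLJ31356 and need not mark the start of FOSL2. These matches describe letters in the reference, and no binding was measured.

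The values are FPKM, fragment numbers scaled to isoform length and library size, as the authors deposited them. Fragment numbers are not in the table, and the lowest FPKM values put 1 fragment at about 0.0634 FPKM times kilobase in the LPA library and 0.0597 in the control library. If FPKM was scaled to each library's own fragment total, these are roughly 15800000 and 16700000 fragments. The library scaling is not given, so these totals may not be the depth of each library. A gene's level is the sum of its isoforms, and 1 FPKM was added to both libraries before the log2 ratio of LPA over control was taken. This addition understates differences at low FPKM. All 7 members had a mean FPKM of at least 1 and so were among the 11688 genes compared. FOSB, at 0.985 FPKM in the control, passed this filter only through the LPA library. Of 7 colorectal epithelial markers 6 had a mean of at least 1 FPKM, and VIL1 was listed at 0 in both libraries. Apart from COL1A1 (4.28 FPKM with LPA, 5.75 in the control) and CD68 (2.85 and 2.64 FPKM), no gene of 16 fibroblast, immune and endothelial markers had a mean of at least 1 FPKM.

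The 7 subunits covered a wide range of levels, which was 215-fold between the highest and lowest member in the LPA library and 308-fold in the control. Their order by FPKM was the same in both libraries: JUND, JUNB, FOSL1, JUN, FOS, FOSL2 and FOSB, from high to low. In each library the deposited bounds of FOS and FOSL2 overlapped, so their order is not resolved. Every other pair of neighbours in this order had separate bounds in both libraries, with FOSL1 and FOSB taken by their main isoforms. JUND ranked 302nd of the 11688 genes by level in the LPA library and 279th in the control. Of the classical immediate early genes, JUNB was the second highest member and JUN the fourth, while FOS and FOSB were at the low end together with FOSL2.

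**Figure D1:**
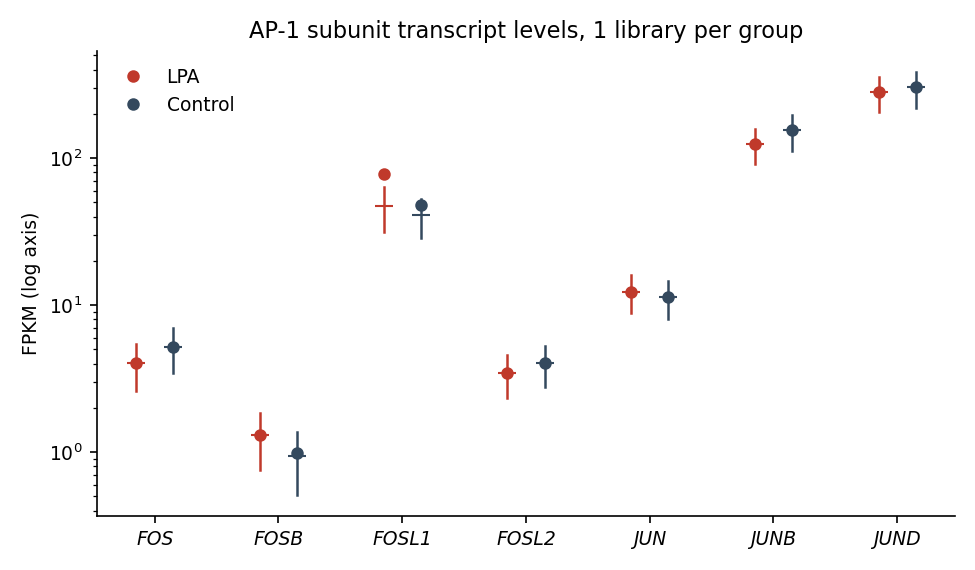
Transcript level of each AP-1 subunit gene in FPKM on a log axis, with 1 LPA library (left in each pair) and 1 control library. Circles are the sums over isoforms, and the dash and line are the FPKM and deposited bounds of the isoform with the highest FPKM in the LPA library. FOSL1 is the gene whose sum (77.9 FPKM with LPA, 48.1 in the control) lies apart from its main isoform.

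FOSL1 differed most between the libraries, with 77.9 FPKM in the LPA library and 48.1 FPKM in the control, a log2 ratio of 0.68. It was the only member at least 1.5-fold apart, 1 of 7 higher with LPA and 0 of 7 lower, against 1.45% and 1.54% of all genes tested. No member was 2-fold higher or lower, against 0.351% and 0.205% of all genes. FOSL1 stood 99th from the top of the 11688 genes by log2 ratio. The other 6 members lay inside the range that holds 95% of all genes, -0.51 to 0.49. Over the 7 members 3 log2 ratios were above 0 and 4 below, with a median of -0.11, and the median over all genes was 0.0009. In RNA from whole cultures, a change in the cells that express a gene and a change in RNA per cell cannot be told apart.

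**Figure D2:**
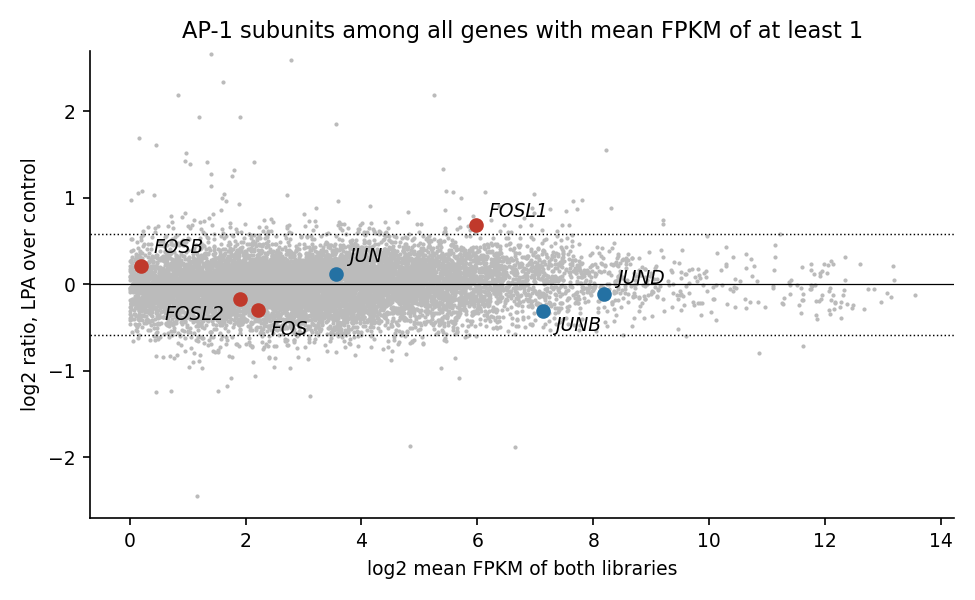
Log2 ratio of LPA over control FPKM (1 added to each) against log2 mean FPKM for genes with mean FPKM of at least 1 (grey, with 23 genes beyond the plotted range), with the FOS family in red and the JUN family in blue. Dotted lines mark 1.5-fold. FOSL1 at 0.68 is the member outside these lines.

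The higher FOSL1 sum came mostly from 1 of its 6 isoforms. NR_125339, which RefSeq lists as a non-coding transcript of the gene, had 21.0 FPKM in the LPA library (bounds 9.11 to 33.0) and 0.875 FPKM in the control (bounds 0 to 2.86). These bounds do not overlap, and the isoform held 27.0% of the gene's FPKM in the LPA library and 1.82% in the control. The FPKM correspond to about 466 fragments assigned to it with LPA and 21 in the control, and the division among isoforms of the locus is the software's estimate. Of the 29.8 FPKM by which the FOSL1 sum was higher with LPA, NR_125339 accounted for 67.7% and the 5 coding isoforms together for 32.3%.

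The main coding isoform NM_005438 had 47.5 FPKM in the LPA library (bounds 31.4 to 63.6) and 40.9 FPKM in the control (bounds 28.8 to 53.0). Its bounds overlapped widely, and its log2 ratio was 0.21. The coding isoform NM_001300844 had 5.01 FPKM with LPA and 3.87 in the control, NM_001300855 had 2.57 and 1.46 FPKM, and NM_001300857 had 1.73 and 0.478 FPKM. Each of these has a lower bound of 0 in both libraries. The remaining coding isoform, NM_001300856, was below 1 FPKM in both (0.0666 with LPA, 0.516 in the control). The coding isoforms summed to 56.9 FPKM with LPA and 47.2 FPKM in the control, a log2 ratio of 0.26 that no longer reaches 1.5-fold.

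**Figure D3:**
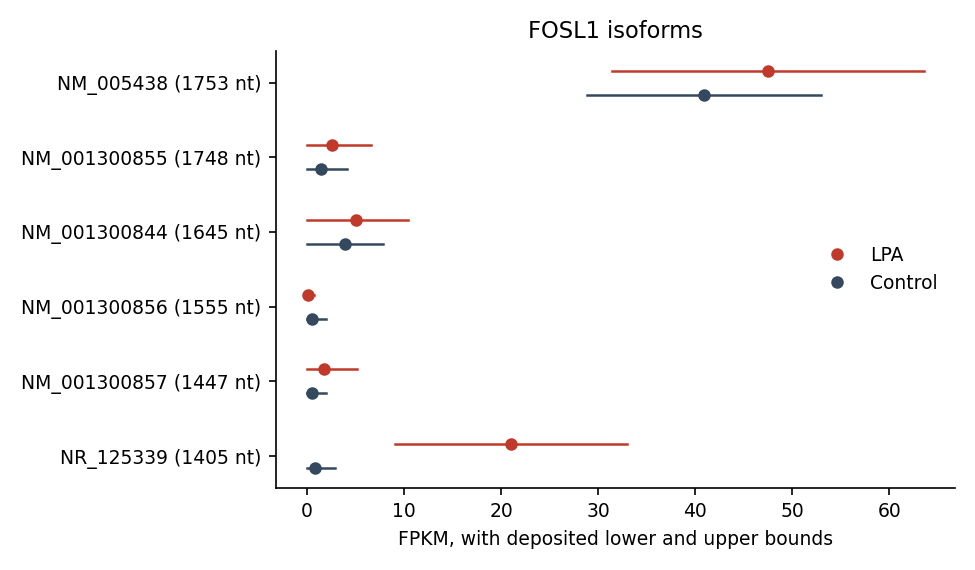
FPKM of the 6 FOSL1 isoforms with the deposited lower and upper bounds, LPA library above the control library for each isoform, named by RefSeq transcript and length. Only NR_125339 has bounds that do not overlap, at 21.0 FPKM with LPA and 0.875 FPKM in the control.

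FOSL1 lies on chromosome 11 (65892136 to 65900526, minus strand, hg38). In GENCODE 29 the transcript matched to NM_005438 has 4 exons, with the start codon at 65900337 to 65900339 in exon 1 (65900241 to 65900526). NR_125339 is 1405 nt long, 348 nt shorter than NM_005438 at 1753 nt. That difference equals exon 2 (198 nt, 65896809 to 65897006) plus the last 150 nt of exon 1. Another GENCODE model of FOSL1, ENST00000534222.1, ends its first exon at 65900391, before that start codon, and continues at exon 3 (65894014 to 65894121). GENCODE types this model as protein coding from a later start. The deposited table gives lengths but not exons, so the correspondence with NR_125339 rests on length alone. The coding isoforms NM_001300856, NM_001300844 and NM_001300857 are shorter by 198, 108 and 306 nt, the lengths of exon 2, exon 3 and both.

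Among isoforms with mean FPKM of at least 1 and an accepted status in both libraries, 2.48% of 16999 had separate bounds with the higher value in the LPA library and 2.12% with the lower. NR_125339 was 1 of 26 isoforms (0.153%) with a log2 ratio corresponding to at least 10-fold higher with LPA. Narrowed to 587 non-coding RefSeq isoforms of at least 300 nt from genes with a measured coding isoform, 29 had separate bounds higher with LPA and 12 lower. In this set NR_125339 ranked 4th by log2 ratio. Its control value of 0.875 FPKM is below 1, so it passed the filter on mean FPKM only through the LPA library. The rank and the 10-fold count include isoforms admitted in this way and are a description only.

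FOS, the prototype subunit, was lower in the LPA library, with 4.05 FPKM (bounds 2.61 to 5.48) against 5.20 FPKM in the control (bounds 3.46 to 6.95). The log2 ratio was -0.30, the bounds overlapped, and the values rest on about 138 and 188 fragments. FOSB, a close relative of FOS, had 1.30 FPKM with LPA and 0.985 FPKM in the control. Nearly all of it was NM_006732, at 1.30 FPKM with LPA (bounds 0.758 to 1.84) and 0.946 FPKM in the control (bounds 0.516 to 1.38), about 77 and 60 fragments. FOSL2, which encodes FRA-2, had 3.46 FPKM with LPA (bounds 2.33 to 4.59) and 4.02 FPKM in the control (bounds 2.76 to 5.28). Its deposited locus on chromosome 2 is shared with FLJ31356, which is listed at 0 in both libraries. For each of these 3 genes the bounds overlapped between the libraries. The library kit does not mark strand, so antisense reads would count towards any member.

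In the JUN family, JUN itself, the strongest activator of the family, had 12.4 FPKM in the LPA library (bounds 8.82 to 15.9) and 11.4 FPKM in the control (bounds 8.09 to 14.6). JUNB, often a weaker activator that can restrain JUN, had 125 FPKM with LPA (bounds 90.8 to 159) and 154 FPKM in the control (bounds 112 to 196). JUNB had a log2 ratio of -0.30, and 11.5% of all genes had a lower one. JUNB and FOS were close at the low end of the 7 members, with JUNB lower when 1 FPKM is added and FOS lower by plain FPKM fold (0.778 for FOS, 0.808 for JUNB), with a pseudocount of 0.1 or after rescaling to TPM. JUND had 280 FPKM with LPA (bounds 204 to 357) and 303 FPKM in the control (bounds 221 to 386), a log2 ratio of -0.11. Each of the 3 genes is intronless and has 1 isoform in the table. The bounds of all 3 overlapped between libraries.

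As a pool, JUN family transcripts outnumbered FOS family transcripts per length in both libraries. The FOS family summed to 86.7 FPKM with LPA and 58.3 FPKM in the control (log2 ratio 0.56), and the JUN family to 418 and 469 FPKM (log2 ratio -0.17). The JUN family sum was thus 4.82 times the FOS family sum in the LPA library and 8.05 times in the control. With coding FOSL1 isoforms only, the FOS family sums were 65.7 and 57.4 FPKM and these quotients 6.36 and 8.17. With all FOSL1 isoforms, FOSL1 made up 89.8% of the FOS family FPKM with LPA and 82.5% in the control, while FOS made up 4.67% and 8.93%. These shares include the non-coding NR_125339, which held 27.0% of the FOSL1 FPKM with LPA and 1.82% in the control. JUND held 67.2% of the JUN family FPKM with LPA and 64.7% in the control, and JUNB 29.9% and 32.9%.

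**Figure D4:**
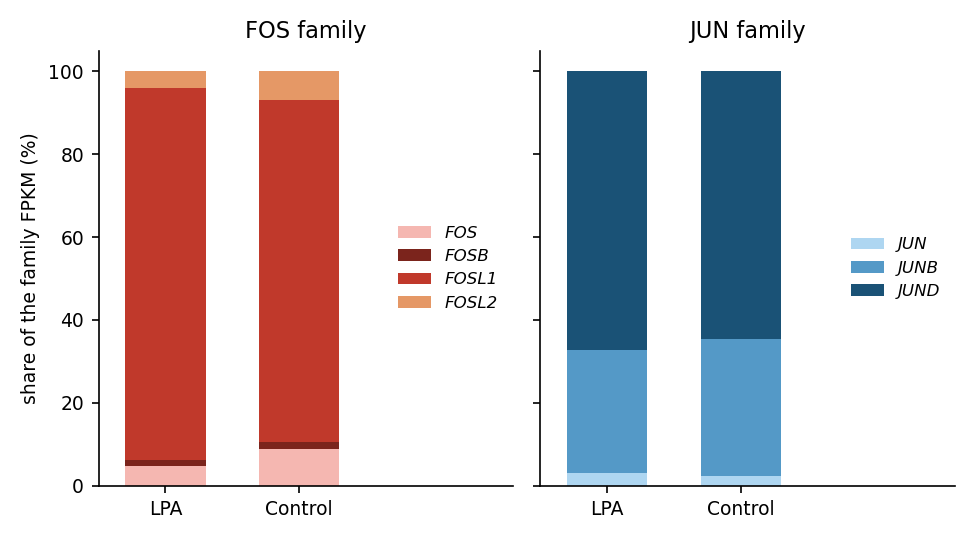
Share of each member in the summed FPKM of the FOS family (left) and of the JUN family (right), LPA library first and control library second in each panel. FOSL1 fills 89.8% of the FOS family with LPA and 82.5% in the control, and JUND fills 67.2% and 64.7% of the JUN family. The FOSL1 share includes its non-coding isoform NR_125339.

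A list of other basic leucine zipper genes, for partners of FOS or JUN proteins and their relatives, was spread in both directions. Of 12 measured genes 8 were above 0, with a median log2 ratio of 0.06. ATF4, the factor of the amino acid response, had 730 FPKM with LPA and 449 FPKM in the control. JDP2, a repressor that pairs with JUN, had 4.55 and 2.65 FPKM. These were the 2 genes of 12 at least 1.5-fold higher, against 1.45% of all genes, and none was as far lower, against 1.54%. BATF3, a partner of JUN proteins in immune cells, had 6.76 FPKM with LPA and 4.62 in the control, and ATF3 had 13.1 and 10.1 FPKM. ATF2, a JUN partner activated by stress kinases, had 5.67 FPKM with LPA and 8.37 FPKM in the control, and its relative ATF7 had 4.34 and 5.90 FPKM.

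Of 20 measured kinase and RAS genes upstream of AP-1, 9 were above 0 and 11 below, with a median of -0.02. HRAS, a RAS GTPase upstream of ERK, was the 1 gene of 20 at least 1.5-fold higher on the same scale (1.45% of all genes), at 70.8 FPKM with LPA and 43.9 FPKM in the control. MAPK8, which encodes the JUN kinase JNK1, had 8.13 FPKM with LPA and 10.7 FPKM in the control. None of 11 phosphatase genes that act on these kinases was 1.5-fold apart (median 0.10), against 1.45% of all genes higher and 1.54% lower. The JNK and p38 phosphatase gene DUSP1 had 10.2 FPKM with LPA and 8.84 in the control. The ERK phosphatase gene DUSP6 had 58.4 and 70.4 FPKM. The serum response factor gene SRF had 18.3 FPKM with LPA and 19.4 in the control, and its partner gene ELK1 had 14.0 and 16.4 FPKM. The 6 genes of that list had a median of 0.02.

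Genes for turnover and co-regulators of AP-1 had a median of -0.12, with 5 of 15 above 0 and 10 below. ZFP36L1, an RNA-binding protein that promotes decay of AU-rich transcripts, had 59.3 FPKM with LPA and 83.0 FPKM in the control. ITCH, a ubiquitin ligase for JUN and JUNB, had 7.71 and 9.44 FPKM, and FBXW7, the substrate receptor of another JUN ligase, had 2.71 and 2.27 FPKM. None of the 15 was 1.5-fold apart, against 1.45% of all genes higher with LPA and 1.54% lower.

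Among genes reported as AP-1 targets in other systems, 20 of 31 measured were above 0 and 11 below, with a median of 0.12. PLAUR, the urokinase receptor gene, had 38.8 FPKM with LPA and 23.6 FPKM in the control. UPP1, a uridine phosphorylase gene, had 19.0 and 11.8 FPKM. On the log2 ratio with 1 FPKM added, these were the 2 genes of 31 at least 1.5-fold higher, against 1.45% of all genes, and none was as far lower, against 1.54%. Without that addition HBEGF and CXCL8 also lie just past 1.5-fold, higher and lower with LPA. TIMP1, a metalloproteinase inhibitor gene, had 237 and 159 FPKM, and HBEGF, an EGF receptor ligand gene, 4.68 and 3.05 FPKM. At the other end, the chemokine gene CXCL8 had 1.89 FPKM with LPA and 2.86 in the control, the urokinase gene PLAU 18.4 and 23.8 FPKM, and MMP14 3.90 and 5.22 FPKM. Of 42 listed genes 11 had a mean below 1 FPKM and were not compared.

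Other immediate early genes had a median of -0.14, with 8 of 21 above 0 and 13 below. None was 1.5-fold apart, against 1.45% of all genes higher with LPA and 1.54% lower. IER2 had 156 FPKM with LPA and 129 FPKM in the control, and IER3, an ERK-responsive survival gene, had 728 and 608 FPKM. NR4A2, an orphan nuclear receptor gene, had 2.58 FPKM with LPA and 3.65 in the control, and the antiproliferative gene BTG2 had 11.4 and 14.9 FPKM.

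**Figure D5:**
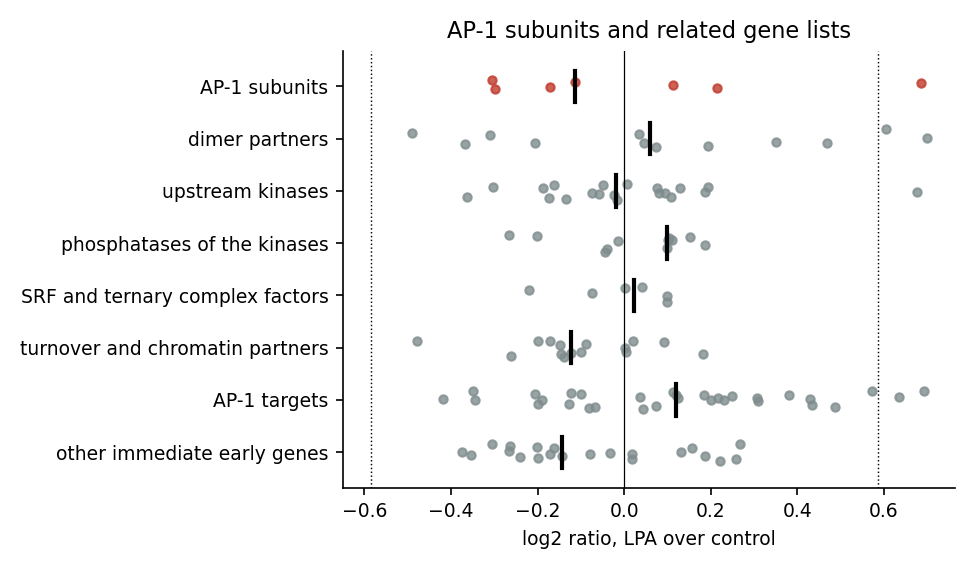
Log2 ratio of LPA over control FPKM for each measured gene of the AP-1 subunits and 7 related lists, with the list median as a black bar and dotted lines at 1.5-fold. Vertical scatter within a list carries no value. The medians run from -0.14 (other immediate early genes) to 0.12 (AP-1 targets).

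Genes most like FOSL1 and JUNB, the members with the highest and lowest log2 ratio when 1 FPKM is added (FOS is lowest by plain FPKM fold), were taken as the nearest by distance between log2(FPKM + 1) values over the 2 libraries. Nearest to FOSL1 were MARS, the methionyl-tRNA synthetase gene (79.0 FPKM with LPA, 46.8 in the control, distance 0.043), WDR74 (74.7 and 49.0 FPKM, distance 0.066) and PRSS3 (76.8 and 44.1 FPKM, distance 0.12). Nearest to JUNB were SSFA2 (124 and 148 FPKM, distance 0.056), OCIAD2 (124 and 145 FPKM, distance 0.085) and NDUFV2 (134 and 152 FPKM, distance 0.10). With 2 libraries such likeness covers a level and 1 difference only.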

How the data were processed

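The authors deposited FPKM per isoform, each with a lower and an upper FPKM bound. Per the submitters' processing notes, the hg38 build was used with TopHat2 2.0.12, Cuffdiff 2.2.0, Cufflinks and bcl2fastq 2.16.0.10. The sources used here do not give settings, the level of the bounds or the library scaling. Such bounds come from software and hold no spread between replicates. RNA was poly-A enriched with an unstranded TruSeq kit, per the labels' protocols. Isoforms with the status HIDATA (16, LPA library) were treated as missing, and all member isoforms had the status OK. Isoforms were summed per symbol with Python 3.11.15 and pandas 2.3.3, and genes with mean FPKM of at least 1 were compared with a pseudocount of 1. One fragment's worth was the median of FPKM times kilobase under 0.09 in genes with 1 isoform over 2000 nt. This covers counting error only. The ratio and call steps were tested on simulated data with changes larger than 2-fold, called at 2-fold. That simulation did not cover 1.5-fold calls or genes near 1 FPKM. All members were named, and in each list the 5 highest and 5 lowest measured genes could be named. The members and lists were chosen with earlier results of these data known. Motifs were chosen with the promoter sequences in view. Alternatives changed the pseudocount, filter, isoform choice and scaling.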

Additional observations from a re-analysis of the deposited data

How the results depend on the processing

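All 7 members kept the sign of their log2 ratio under the 12 alternatives wherever a value could be given. FOS, FOSB and FOSL2 have none at a mean FPKM of at least 5. With the leading isoform standing for the gene, FOSL1 was at 0.21, the FOS family at 0.14, and 0 members were 1.5-fold higher. With coding RefSeq isoforms only, an alternative chosen after seeing the data, these were 0.26, 0.19 and 0. Both leave out NR_125339. FOSB was at 0.37 with a pseudocount of 0.1 and 0.074 with a pseudocount of 5, and FOS at -0.17 with a pseudocount of 5. Without a filter on low values the median of other immediate early genes was -0.0066. The remaining 219 values moved by less than 0.1 on the log2 scale or, for counts, by less than 1.5 times. Among them was keeping HIDATA isoforms at 0, also added after seeing the data. No paired analysis was possible because each group has 1 library. FOSB rests on about 77 fragments with LPA and 62 in the control, and the software's split among FOSL1 isoforms cannot be checked from the table.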

Other observations

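The set of 587 non-coding RefSeq isoforms of at least 300 nt from genes with a measured coding isoform was taken again. In it 5 had log2 ratios corresponding to at least 10-fold higher with LPA, against 0.153% of all 16999 isoforms compared. Isoforms 10-fold lower were not counted. All 5 passed the filter on mean FPKM only through the LPA library, so the count is a description only. The 0.153% share was taken without the limit on length, and the division among isoforms of a locus is the software's estimate. Beside NR_125339 of FOSL1 there were 4 others, named here after their values were seen. PRDX3, a mitochondrial peroxiredoxin gene, held 3 of them: NR_126103 had 17.9 FPKM in the LPA library and was listed at 0 in the control, NR_126105 had 16.3 and 0.0041 FPKM, and NR_126106 had 10.6 FPKM with LPA and was listed at 0 in the control. TARS, a threonyl-tRNA synthetase gene, held the other, NR_047677, with 17.1 FPKM in the LPA library and 0.0090 FPKM in the control.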
